A study of Homo sapiens with 20 samples.

Results

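The genes that encode the mitochondrial protein import machinery were followed through chromatin maps of c-Myc (MYC), a transcription factor, and of RNA polymerase II (POL2) made in PC-3, a long-established line of prostate cancer cells. They were the GENCODE release 44 protein-coding genes with a TIMM or TOMM symbol and a number, together with PAM16, DNLZ, GRPEL1, GRPEL2, PMPCA, PMPCB, SAMM50, MTX1 and MTX2. This rule gave 34 of 20046 protein-coding genes, and 1 gene that reads from TIMM23B through into AGAP6 was not counted. Wild-type cells (WT) were set beside SLK-knockout cells (SLK-KO), which the labels also call PSD10, and both were grown without any other treatment named in the labels and fixed with formaldehyde. For each genotype there were 3 MYC and 3 POL2 libraries, so 12 of the 20 samples were used, and the 6 IgG and 2 Input libraries were not analysed here. The series describes the replicates as biological, but whether SLK-KO is 1 clone is not stated, so loss of the kinase SLK and other differences between the lines cannot be told apart.

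Nearly all mitochondrial proteins are made in the cytosol and have to be threaded through the mitochondrial membranes. The TOM complex of the outer membrane receives them, the TIM23 translocase and its motor pull those with a presequence into the matrix, and the TIM22 translocase inserts carrier proteins into the inner membrane. Small TIM proteins chaperone hydrophobic cargo between the membranes, the processing peptidase removes presequences in the matrix, and the SAM complex builds barrel-shaped proteins into the outer membrane. MYC binds DNA together with its partner MAX, preferring the E-box CACGTG, and many nuclear genes for mitochondrial proteins are among its known targets.

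Each library is represented by a list of summits, the single bases at which the authors' peak caller placed the tops of its peaks. A gene counted as carrying MYC or POL2 when a summit lay within 1 kb of any of its annotated transcript starts. The score of a summit is the authors' value, −log10 of the peak's q-value, and rank 1 is the highest score in that library's list. The MYC lists held 201 to 365 summits in WT and 988 to 1420 in SLK-KO, and the POL2 lists 5047 to 17126 and 15436 to 19017. Read depth is unknown, so a gene outside a list has no called peak, which is not the same as no binding. At SLK itself POL2 summits were called in 2 WT and 3 SLK-KO libraries and MYC summits in none, and summit lists cannot show whether its product was lost or check the identity of the cells.

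MYC was found at 14 of the 34 import genes, in SLK-KO libraries at 13 of them and in a WT library at TOMM70 alone. At 6 of these genes CACGTG lay within 100 bp of a SLK-KO MYC summit. These E-boxes are printed as 30 bases of the GRCh38 plus strand each, 5′ to 3′, with the E-box in capitals, because the same hexamer sat upstream, in an intron, in a leader or in coding sequence depending on the gene.
DNLZ: gggccctgcgtcCACGTGcagctcgcaccc
TOMM5: cgcgccggccacCACGTGcacttcagtgcc
TIMM44: aggtggtacaggCACGTGgatccaccgacc
TIMM8B: cttttctacgggCACGTGgcctgcaaggag
TIMM9: gatgggaaagaaCACGTGggagcagtaatg
MTX1: agcagtacaggcCACGTGcagtttggcaag
The DNLZ window (chr9:136363859-136363888) and the TIMM44 window (chr19:7944013-7944042) lay upstream of the canonical transcript. The TOMM5 window (chr9:37592204-37592233) and the TIMM8B window (chr11:112086291-112086320) lay in introns. The TIMM9 window (chr14:58427162-58427191) lay in the 5′ untranslated region of the canonical transcript, and the MTX1 window (chr1:155208865-155208894) in a coding exon. The windows at TIMM44, TIMM9 and MTX1 were each marked by MYC in 2 SLK-KO libraries and the other 3 in 1.

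TIMM23B had no E-box but summits close together in all 3 SLK-KO libraries. The 30 bases around the middle one (chr10:49942191-49942220, plus strand, GRCh38) are printed with the summit base in capitals, because the summits fell on both sides of the border between leader and coding sequence.
TIMM23B: taccatggaaggaggCgggggaagcggcga
TIMM23B encodes a near-identical copy of the TIM23 channel protein TIMM23, and reads from such copies can be assigned to either gene, so both are uncertain.

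**Figure D1:**
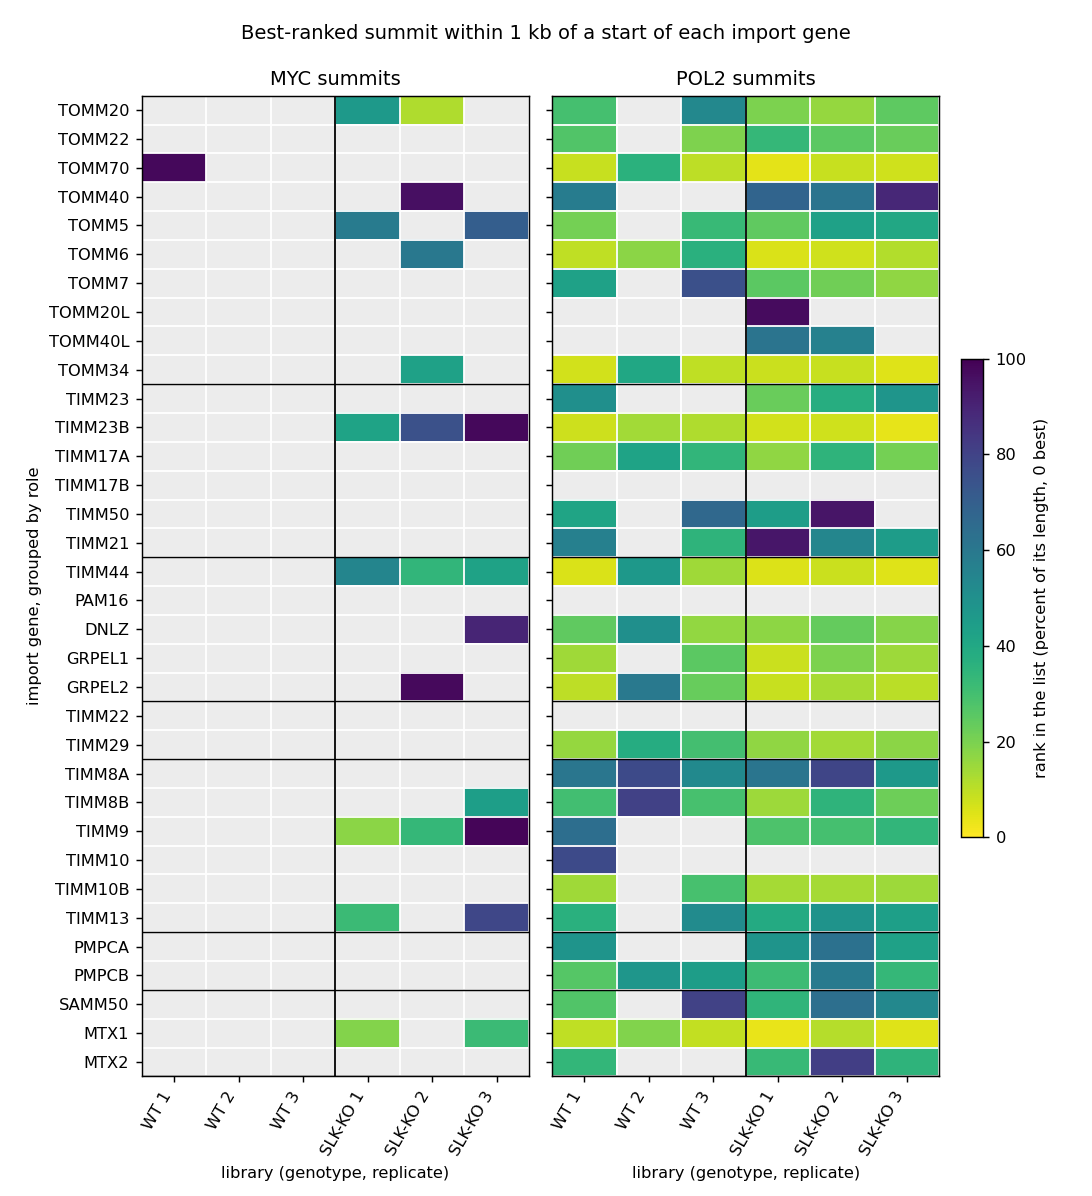
Rows are the 34 import genes grouped by role, columns the 6 MYC and 6 POL2 libraries, and colour gives the rank of the best summit within 1 kb of a start as a percent of the length of that library's list (grey: no summit). The MYC panel is filled at 1 gene in WT and 13 in SLK-KO, while the POL2 panel is filled at 31 genes, with most gaps in WT replicate 2.

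The WT MYC libraries had a summit at 1, 0 and 0 import genes and the SLK-KO MYC libraries at 7, 8 and 8. The groups did not overlap. As shares of the 34 genes these counts gave a WT mean of 0.980% ± 1.70 and an SLK-KO mean of 22.5% ± 1.70 (SD, n = 3 each), a difference of 21.6 percentage points. Over all protein-coding genes the means were 1.42% ± 0.395 and 5.50% ± 0.861, 4.09 points apart, and over the 10778 coding genes with a POL2 summit in at least 1 library they were 2.60% ± 0.716 and 10.1% ± 1.56. In both of these wider sets the genotypes did not overlap either, so the separation was not particular to import genes. Lists shortened to the best 201 summits each, the length of the shortest, gave 0, 0 and 0 import genes in WT and 0, 1 and 0 in SLK-KO, and 1.06% ± 0.0202 against 1.01% ± 0.0208 of all coding genes. The difference at the import genes was then 0.980 points, less than the SD of the SLK-KO libraries. Lists so short, with about 1% of coding genes called, leave little room for a difference among 34 genes. Of the 23 SLK-KO summits at import genes 22 ranked past 201 and 19 past 365, the length of the longest WT list. Amount of binding and number of called peaks cannot be told apart in these files.

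**Figure D2:**
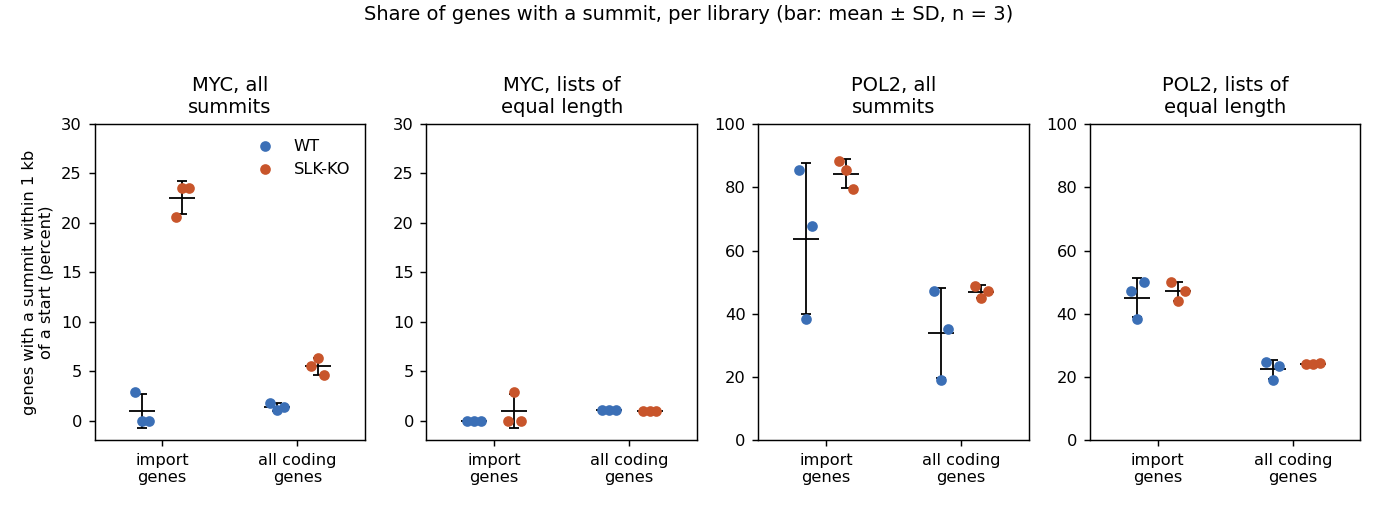
Points are libraries, and bars are the mean ± SD (n = 3) of the percent of genes with a summit within 1 kb of a start, for the 34 import genes and for all 20046 coding genes, with all summits and with lists of equal length (201 for MYC, 5047 for POL2). The MYC difference of 21.6 points with all summits becomes 0.980 points with lists of equal length, in which only 1.06% (WT) and 1.01% (SLK-KO) of all coding genes have MYC.

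By gene, a MYC summit in at least 1 of 6 libraries was found at 14 of 34 import genes (41.2%), against 9.65% of all coding genes. Among genes with POL2 in at least 1 library the shares were 14 of 31 import genes (45.2%) and 17.7%. TIMM23B, TIMM44 and TIMM9 had MYC in 3 SLK-KO and 0 WT libraries, which is 3 of 34 genes (8.82%) beside 0.873% of all coding genes, or 3 of 31 (9.68%) beside 1.61% of those with POL2. With at least 2 SLK-KO and 0 WT libraries MTX1, TIMM13, TOMM20 and TOMM5 joined them, 7 of 34 (20.6%) beside 2.7%. No import gene had MYC in 3 WT and 0 SLK-KO libraries, and neither did any coding gene (0%). No gene could pass a test one by one: the exact two-sided permutation of 3 against 3 libraries has 20 relabellings and a smallest p of 0.1, so 0 genes had an unadjusted p under 0.05, and after Benjamini-Hochberg adjustment over the 20046 genes the smallest p was 1. The count of 3 fell to 1 (TIMM44) among summits with a score of at least 5 and to 0 in lists of equal length, and rose to 6 without SLK-KO replicate 2, when MTX1, TIMM13 and TOMM5 joined. The shares of all coding genes under these settings are not given here, and 0.873% is not a background for them.

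The TOM group of 10 genes held those of the TOM complex together with TOMM34 and the paralogs TOMM20L and TOMM40L. MYC was spread over 6 of these 10 genes, TOMM34 among them, and at none of them in 3 libraries. TOMM20, a receptor for presequences, had the best-ranked MYC summit of any import gene, rank 170 of 1420 in SLK-KO replicate 2 (score 13.7). In SLK-KO replicate 1 it ranked 560 of 1218 (score 6.20), and it was in no WT list and not in SLK-KO replicate 3. Both summits lay in an intron, 307 and 331 bp downstream of the start and 24 bp apart. TOMM5, a small subunit that helps to hold the complex together, ranked 711 and 691 in SLK-KO replicates 1 and 3, at 2 positions 293 bp apart. Only the second of these, 225 bp downstream, had the E-box shown above.

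TOMM34, a cytosolic co-chaperone of precursor proteins, TOMM6, another small TOM subunit, and TOMM40, the pore itself, had MYC in SLK-KO replicate 2 alone. Their ranks there were 606, 852 and 1359 of 1420, so TOMM40 sat close to the end of the list. TOMM70, the receptor for carrier precursors, was the reverse case. Its only MYC summit was in WT replicate 1, at rank 357 of 365 (score 1.75), and there was none in SLK-KO. That summit lay 244 bp upstream of TOMM70 and 199 bp from the start of the neighbouring gene LNP1, so it was closer to LNP1. The receptor TOMM22, the small subunit TOMM7 and the paralogs TOMM20L and TOMM40L had no MYC summit.

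Of the 6 genes of the TIM23 translocase only TIMM23B carried MYC. It ranked 511 of 1218, 1065 of 1420 and 965 of 988 in SLK-KO replicates 1 to 3, with scores of 6.80, 3.80 and 1.75. The summits lay 98, 125 and 135 bp downstream of the start, within 37 bp of each other, and none had CACGTG within 100 bp. The start of PARG, which runs the other way, is 22 bp from that of TIMM23B, so the summits belong to a shared promoter. TIMM23, TIMM17A and TIMM17B, TIMM50 and TIMM21 had no MYC summit in any library.

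In the import motor 3 of 5 genes carried MYC. TIMM44, which tethers the motor chaperone HSPA9 to the channel, ranked 666 of 1218, 484 of 1420 and 419 of 988 in the SLK-KO libraries (scores 5.41, 7.45 and 6.47). The summits of replicates 1 and 3 lay 355 and 386 bp upstream, 3 and 23 bp from the E-box shown above, and 52 and 83 bp from the start of a long non-coding RNA. The summit of replicate 2 lay 59 bp downstream, without an E-box, so the 3 SLK-KO libraries marked 2 positions 477 bp apart at most. DNLZ, which keeps HSPA9 soluble, had MYC in SLK-KO replicate 3 (rank 886 of 988), directly on its E-box 127 bp upstream. GRPEL2, an exchange factor for HSPA9, had it in SLK-KO replicate 2 (rank 1385 of 1420). Its paralog GRPEL1 and the motor regulator PAM16 had none.

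Among the small TIM chaperones TIMM9, TIMM13 and TIMM8B carried MYC and TIMM8A, TIMM10 and TIMM10B did not. TIMM9, the partner of TIMM10 in the carrier pathway, ranked 212 of 1218, 472 of 1420 and 975 of 988 in SLK-KO replicates 1 to 3, with scores of 11.4, 7.63 and 1.43. It stood high in 1 list and near the end of another. The summits of replicates 1 and 3 lay 0 and 36 bp from the E-box in the leader of TIMM9. The summit of replicate 2 lay 362 bp from that of replicate 1, without an E-box and 104 bp from the start of KIAA0586, which runs the other way. All 3 summits lay closer to an annotated TIMM9 start, 4, 9 and 28 bp upstream of the nearest in replicates 1 to 3.

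TIMM13, the partner of TIMM8A, ranked 388 of 1218 in SLK-KO replicate 1 and 778 of 988 in replicate 3, with summits 23 bp upstream and 50 bp downstream of the start and no E-box. TIMM8B had MYC in replicate 3 alone (rank 436 of 988), 436 bp downstream and 17 bp from its E-box. In the SAM complex MTX1, a metaxin of the outer membrane, ranked 227 of 1218 in SLK-KO replicate 1 and 315 of 988 in replicate 3. These summits lay 25 bp apart in coding sequence, 77 and 102 bp downstream, and shared the E-box shown above at 3 and 17 bp. SAMM50 and MTX2, the processing peptidase genes PMPCA and PMPCB, and the TIM22 genes TIMM22 and TIMM29 had no MYC summit.

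**Figure D3:**
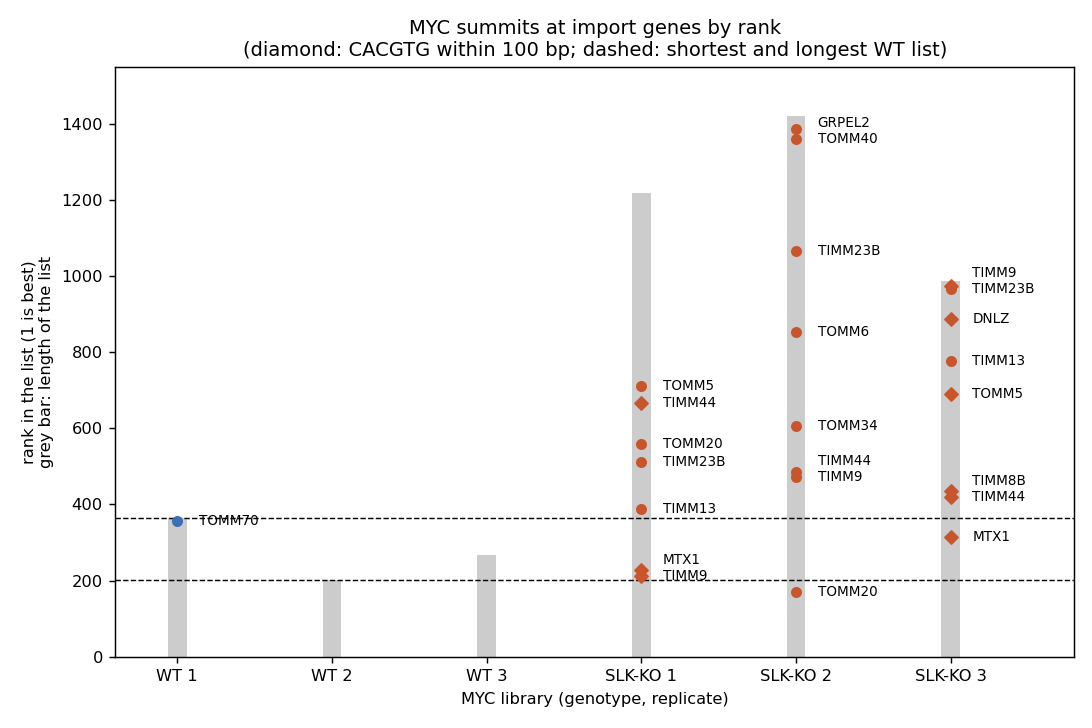
Each point is a MYC summit at an import gene, placed by its rank (1 is best) in the list of its library, with grey bars for list lengths, diamonds for CACGTG within 100 bp, and dashed lines at the shortest and longest WT list (201 and 365). Of 23 SLK-KO points 1 lies under the lower line, and diamonds appear in SLK-KO replicates 1 and 3.

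The E-box was found within 100 bp of 9 of the 23 SLK-KO summits at import genes (39.1%, Wilson 95% interval 22.2% to 59.2%, counting error only). By replicate it was 3 of 7, 0 of 8 and 6 of 8, so the replicates differed widely on few summits each. The 9 summits marked 6 distinct E-boxes, some of them in more than 1 library, so the interval treats repeated sites as separate. The single WT summit had none (0 of 1, Wilson 95% interval 0% to 79.3%), which leaves the genotype difference of 39.1 points without a usable WT value. Around all MYC summits near coding starts the share was 42.3% (294 of 695) in WT and 30.4% (860 of 2832) in SLK-KO, and the 3 SLK-KO libraries were alike there at 30.9%, 29.9% and 30.3%. The share at import genes was 60% without SLK-KO replicate 2 and 20% without SLK-KO replicate 3. A further 7 SLK-KO summits had no CACGTG but the related hexamer CACGCG on either strand within 100 bp. The median rank of the import gene summits, as a percent of list length, was 42.0, 51.3 and 74.3 in SLK-KO replicates 1 to 3, beside 48.2, 47.0 and 47.8 for all coding genes.

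RefSeq promoters on GRCh38, 250 bases before to 50 after a start, were matched for 30 of the 34 genes. CACGTG, which reads the same on both strands, was in 3 of them (10%: TIMM10, TIMM8A and TOMM20), beside 8.89% of 15345 coding promoters. MYC was called at 1 of these 3 genes, TOMM20, where both SLK-KO summits lay farther downstream than this window, and at 10 of the 27 without the motif. Over all coding genes with a matched promoter it was called at 269 of 1364 with CACGTG (19.7%) and at 1300 of 13981 without (9.30%). With 3 import genes on 1 side, the split at import genes cannot be compared with this. CACGCG, searched on both strands and able to overlap CACGTG in part, was in 9 (30%) beside 14.9%: GRPEL2, PAM16, PMPCA, SAMM50, TIMM13, TIMM50, TOMM34, TOMM40 and TOMM6. The E-boxes at the MYC summits of TIMM44, TIMM9 and MTX1 lay outside the promoter windows of these genes. The E-box at the DNLZ summit lay 127 bp upstream of a GENCODE start, but DNLZ is not among the 3 genes counted. The genes without a matched promoter are not named here, so the count of 3 can miss promoters with CACGTG. A match or its absence describes letters and not a binding site.

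The SLK-KO MYC summits at import genes lay at a median distance of 102 bp from the starts, 11 of 23 within 100 bp, 17 within 200 bp and 14 downstream. In SLK-KO replicates 1 to 3 the median was 77, 100.5 and 131 bp, beside 113.5, 115.5 and 124 bp for all coding genes. Closeness to the start was therefore not particular to import genes. In the same-numbered SLK-KO POL2 library a POL2 summit lay 15 to 586 bp from every one of the 23, at a median of 206 bp, and within 200 bp of 11. The closest pair was at TIMM13 in replicate 1 (15 bp) and the widest at TIMM9 in replicate 1 (586 bp). Import genes with MYC had POL2 in 6 of 6 libraries in 9 of 14 cases and those without in 4 of 20, a description in which both antibodies share the limits of their lists. The same split over all coding genes is not given here. Of the 1935 coding genes with MYC, 1904 had POL2 in at least 1 library, a looser measure than 6 of 6 that does not match the split. Without a matching share the split was not read as particular to import genes.

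**Figure D4:**
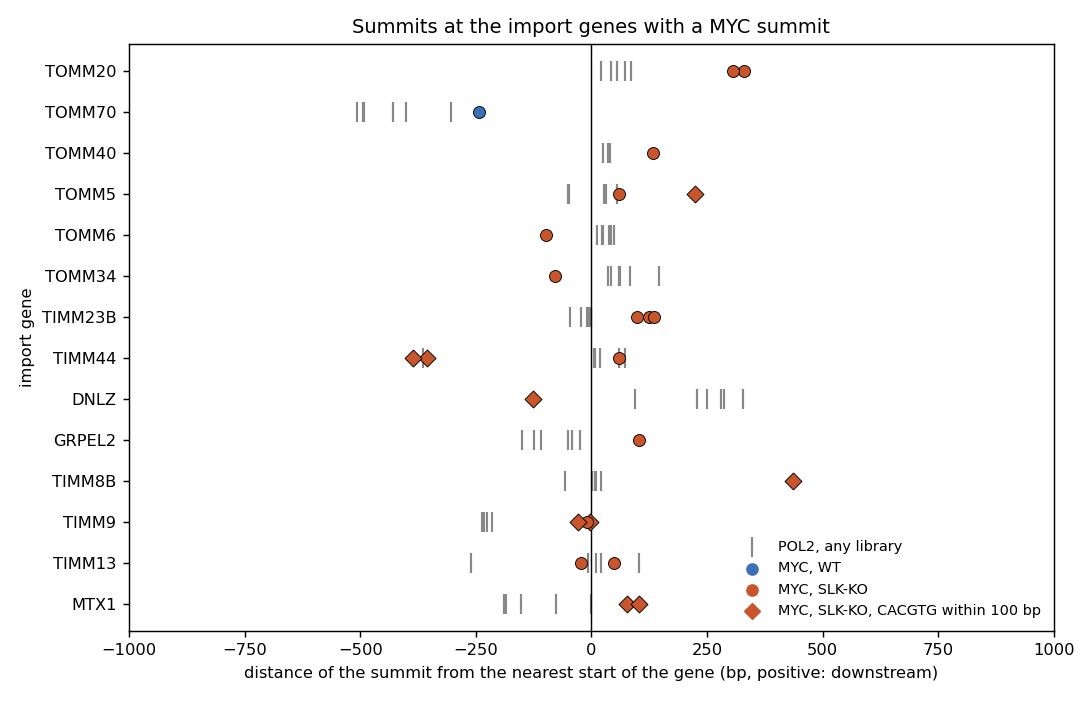
Summits at the 14 import genes with MYC, by distance in bp from the nearest annotated start of the gene (positive: downstream), with POL2 of all libraries as ticks, MYC as circles and MYC with CACGTG within 100 bp as diamonds. Distances refer to the nearest of several starts, so the TIMM9 points overlie although their genome positions span 362 bp.

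POL2 was found at 31 of the 34 import genes in at least 1 library (91.2%), beside 53.8% of all coding genes, and at 13 (38.2%) in 6 of 6 libraries, beside 18%. The WT libraries had POL2 at 29, 13 and 23 import genes and the SLK-KO libraries at 30, 29 and 27. The groups overlapped, because WT replicate 1 was as high as SLK-KO and WT replicate 2 was far lower. The mean shares were 63.7% ± 23.8 for WT and 84.3% ± 4.49 for SLK-KO (SD, n = 3 each), and their difference of 20.6 points is smaller than the SD of the WT libraries. The same means over all coding genes were 33.9% ± 14.1 and 47.1% ± 1.92. In lists shortened to 5047 summits they were 45.1% ± 6.12 and 47.1% ± 2.94, a difference of 1.96 points, beside 22.5% ± 2.96 and 24.2% ± 0.168. The difference was 7.84 points without WT replicate 2, whose list is the shortest, and 31.4 points without WT replicate 1, whose list is the longest WT list.

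The 13 genes with POL2 in every library came from all 7 roles. They were TOMM70, TOMM34 and TOMM6 of the TOM group, TIMM23B and TIMM17A of TIM23, TIMM44, DNLZ and GRPEL2 of the motor, TIMM29 of TIM22, TIMM8A and TIMM8B of the small TIMs, PMPCB of the peptidase and MTX1 of SAM. Another 9 lacked POL2 in WT replicate 2 alone: GRPEL1, SAMM50, TIMM10B, TIMM13, TIMM21, TOMM20, TOMM22, TOMM5 and TOMM7. That library was also the missing one for 2952 of the 3098 coding genes with POL2 in 5 libraries. MTX2, PMPCA, TIMM23, TIMM9 and TOMM40 lacked POL2 in WT replicates 2 and 3, and TIMM50, which receives presequences from the TOM complex, lacked it in WT replicate 2 and SLK-KO replicate 3.

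Few import genes had sparse POL2. TOMM40L, a paralog of the pore, had it in SLK-KO replicates 1 and 2 alone, and TOMM20L in SLK-KO replicate 1 alone, at rank 18439 of 19017. TIMM10 had it in WT replicate 1 alone, at rank 13249 of 17126. PAM16, TIMM17B and TIMM22 lacked POL2 in all 6 libraries, and the nearest summit in any of them lay 44085, 62211 and 69404 bp from their starts. Neither antibody gave a call at these 3 genes. Whether such wide regions without a POL2 summit come from the processing before deposit was not tested, so this was not read as absent binding.

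No import gene had POL2 in 3 SLK-KO and 0 WT libraries, beside 1.54% of all coding genes, and none in 3 WT and 0 SLK-KO libraries, beside 0.00998%. The smallest exact permutation p was again 0.1 (adjusted 1). The first count was 5 without WT replicate 1 (MTX2, PMPCA, TIMM23, TIMM9 and TOMM40), 1 without SLK-KO replicate 3 (TOMM40L) and 2 in lists of equal length (TOMM20 and TOMM7), and the second was 1 in lists of equal length (PMPCB). The shares of all coding genes under these settings are not given here, and 1.54% and 0.00998% are not backgrounds for them. Of the 5 genes, TOMM40 ranked 9910 of 17126 in WT replicate 1 and 12880, 9517 and 14510 in the SLK-KO lists. TIMM23, the channel protein, ranked 8575 in WT replicate 1 and 4348, 5831 and 7791 in SLK-KO.

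To compare POL2 between lists of different length, the best summit of each gene was ranked again among the 3615 coding genes with POL2 in all 6 libraries, 13 of them import genes. PMPCB, the catalytic subunit of the processing peptidase, stood at 3160, 2167 and 3078 in WT and at 3317, 3550 and 3232 in SLK-KO. All 3 WT values were better than all 3 SLK-KO values, with means of 2802 and 3366 (exact permutation p = 0.1, adjusted 0.335 over the 3615 genes). It was the only import gene whose groups did not overlap, 1 of 13 beside 14.9% of all genes ranked better in every WT library and 0 of 13 beside 14.9% ranked better in every SLK-KO library. A share of 1 in 13 is below that background and singles out nothing. PMPCB was no longer called among summits with a score of at least 5, and other genes joined it when a library was left out. They were DNLZ and TIMM8A without WT replicate 1 (3 of 13 with PMPCB, beside 20.7% of all genes ranked), and TIMM13 and TOMM5, ranked only in that setting, without WT replicate 2 (3 of 22, beside 20.5%).

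The import genes with the best POL2 ranks were MTX1, TIMM44, TIMM23B, TOMM70 and TOMM34, with median re-ranks of 909.5, 1076, 1089, 1176 and 1198 of 3615. The best summit lay closer to another coding start in 6 libraries at TOMM70, 4 at MTX1 and 2 at TIMM23B. At TIMM44 and TOMM34 this was so in 0 libraries. The ranks of TOMM70, MTX1 and TIMM23B may therefore belong in part to their neighbours. TIMM44 stood at 986, 2135 and 1365 in WT and at 970, 1166 and 804 in SLK-KO, a lower mean rank in SLK-KO (980 beside 1495) with overlapping groups (exact permutation p = 0.2, adjusted 0.476). MTX1 stood at 1625.5, 928.5 and 890.5 in WT and at 609.5, 1540.5 and 813.5 in SLK-KO, and the order of its libraries mixed the genotypes. TIMM23B stood at 1291, 661 and 1133 in WT and at 1254, 1045 and 603 in SLK-KO, which are nearly the same range. All 3 had MYC in at least 2 SLK-KO libraries, whereas TIMM9, which also had MYC in 3, lacked POL2 in 2 WT libraries and was not ranked.

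TOMM70 stood at 1464.5, 1723.5 and 976.5 in WT and at 753.5, 1212.5 and 1139.5 in SLK-KO, and TOMM34 at 1179, 1902 and 957 and at 1447, 1217 and 801. Both sets overlapped. At the other end TIMM8A, the chaperone lost in a deafness and dystonia syndrome, stood at 3607, 3128 and 3273 in WT and at 3599, 3604 and 3462 in SLK-KO. Its median of 3530.5 of 3615 was the worst among the import genes ranked. The other 6 genes (TOMM6, GRPEL2, TIMM29, DNLZ, TIMM17A and TIMM8B) had medians of 1341 to 2915.5 and overlapping groups.

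Leaving out 1 library gave non-overlapping ranks at a few import genes. TIMM44 and GRPEL2 ranked better in every SLK-KO library without WT replicate 1, and these and MTX1 did so without SLK-KO replicate 2. Without WT replicate 3 the genes were TIMM8B and TOMM70. These counts of 2, 3 and 2 were out of 13 import genes, beside 20.2%, 18.5% and 19.7% of all genes ranked under the same settings. Without WT replicate 2 the ranked set grew to 6567 genes, 22 of them import genes, and TOMM20 and TOMM7, which had not been ranked before, made 2 of 22 beside 19.8%.

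**Figure D5:**
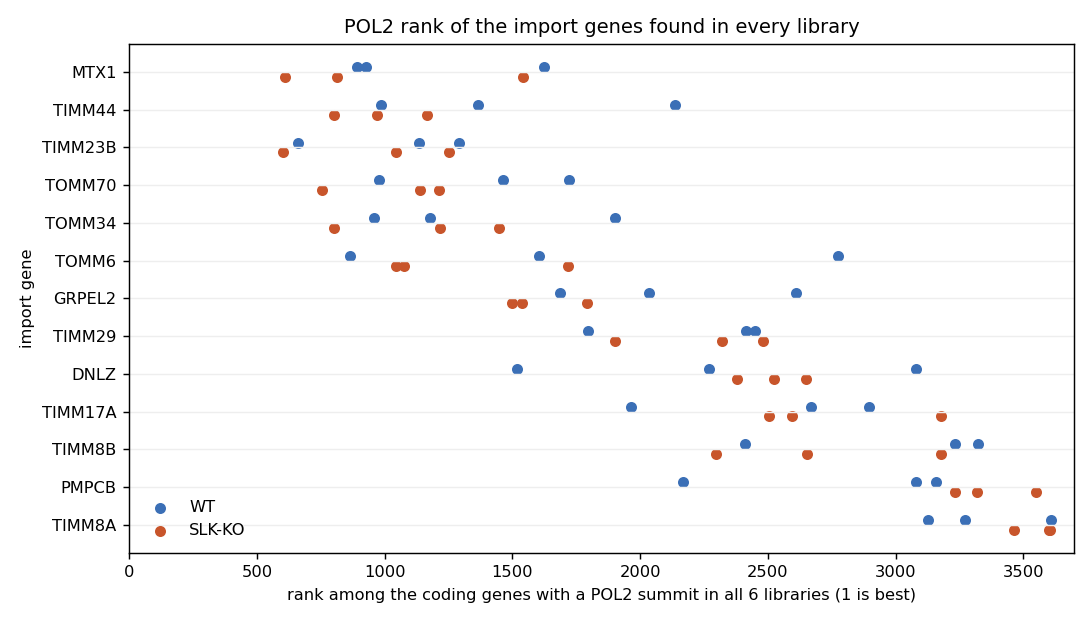
POL2 rank (1 is best) of the 13 import genes with POL2 in all 6 libraries, counted among the 3615 coding genes with POL2 in all 6, 1 point per library, WT above and SLK-KO below each line. Only at PMPCB do the 3 WT points lie entirely to the better side of the 3 SLK-KO points, and TIMM8A has the worst median of the 13 (3530.5).

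POL2 summits at most import genes sat on the starts. Of 151 best summits over the libraries, 110 (72.8%) lay within 100 bp, beside 63.8% of those of all coding genes, with a median signed distance of 10 bp downstream beside 11 bp. Over all POL2 summits at import genes in each library, not only the best, the median distance was 62, 62.5 and 57 bp in WT. In SLK-KO it was 45.5, 41.5 and 40 bp, and the groups did not overlap. Over all summits at coding genes it was 68, 66 and 67 bp in WT and 74, 73 and 69 bp in SLK-KO, higher in SLK-KO. The genes counted differ between libraries. With only the best summit of each of the 13 import genes present in all 6, the medians were 42, 60 and 59 bp in WT. In SLK-KO they were 50, 41 and 26 bp, with overlapping groups. The 2 sets of medians thus differ both in genes and in summits per gene. At 3 import genes POL2 lay over 200 bp from the start in every library that had it. The POL2 summits of TOMM70 lay 304 to 508 bp upstream in the 6 libraries and were each closer to the start of LNP1, and those of TIMM9 lay 215 to 236 bp upstream and closer to KIAA0586 in all 4 libraries, while the single summit at TOMM20L lay 268 bp downstream. Distances over 300 bp in some libraries were also found at DNLZ, TIMM44 and TIMM21. At TIMM21 the summits of WT replicates 1 and 3 and SLK-KO replicate 3 lay at -448, -608 and -586 bp (negative: upstream), closer to FBXO15, and those of SLK-KO replicates 1 and 2 within 100 bp of the start.

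Another coding start lay within 1 kb of a start for 10 of 34 import genes (29.4%), beside 21.1% of all coding genes, and 5 of the 10 were among the 14 with MYC. At TIMM23B and PARG, TIMM10B and ARFIP2, TIMM8B and SDHD, and PMPCA and ENTR1 the starts were 22, 22, 26 and 16 bp apart. At TIMM17B and PQBP1, TIMM9 and KIAA0586, TIMM29 and YIPF2, and MTX1 and THBS3 they were 52, 69, 130 and 187 bp apart, and at TOMM70 and LNP1, and TIMM21 and FBXO15, 443 and 680 bp. SDHD encodes a subunit of respiratory complex II, so this start region is shared with a respiratory chain gene. At 8 import genes the best POL2 summit was closer to the neighbour's start in at least 1 library, and which of the paired genes a summit belongs to cannot be told apart.

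Import pathway genes outside the naming rule gave a second list of 22. MYC was found at 6 of the 22 in at least 1 library, beside 9.65% of all 20046 coding genes. It was at 1 of the 22 in 3 SLK-KO and 0 WT libraries, beside 0.873% of all coding genes, and at 0 in 3 WT and 0 SLK-KO libraries. The 1 was HSPA9, the matrix chaperone that drives the import motor, at ranks 547, 1071 and 239 of the SLK-KO lists. HSPD1 and HSPE1, the chaperonin genes that share a promoter, shared summits at ranks 331 and 394 in SLK-KO replicates 1 and 3, and CHCHD4, the oxidoreductase that traps proteins between the membranes, ranked 853 and 554 in replicates 2 and 3. DNAJC11 had MYC in WT replicate 3 (rank 266) and in all 3 SLK-KO libraries (776, 420 and 342), and MPC1 in SLK-KO replicate 3 (rank 883). POL2 was found at 19 of the 22, beside 53.8% of all coding genes, and in all 6 libraries at 9 of the 22, beside 18%. It was at 0 of the 22 in 3 SLK-KO and 0 WT libraries, beside 1.54% of all coding genes, and DNAJC15, GFER and MTCH2 had none.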

How the data were processed

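Per the submitters' processing notes, 50 bp paired-end reads were handled with nf-core/chipseq 2.1.0, including Trim Galore 0.6.7, BWA 0.7.18-r1243, Picard 3.2.0 and MACS3 3.0.1, against GRCh38.p14; the peak caller's control and options are not given in the sources used here. The authors deposited 1 summit list per library, with a score per summit taken here to be −log10 of the q-value, since the lowest score of each lies just above 1.30103, −log10 of 0.05. The lists hold no counts and no peak widths, so depth is unknown.

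Summits were assigned to every GENCODE release 44 protein-coding gene with an annotated transcript start within 1000 bp, and a gene's best-scored summit was used. E-box shares, and the library medians of distance over all import or all coding genes, took in every assigned summit. Presence in 3 libraries of 1 genotype and 0 of the other, and ranks that did not overlap, were called over all coding genes, and exact two-sided permutation p-values were adjusted by the Benjamini-Hochberg method. E-boxes were searched within 100 bp in GRCh38. With 1 WT summit at import genes, E-box shares were pooled over libraries in place of a mean of library shares.

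The gene set, lists and tests were chosen with earlier results of these data known. Named were all import genes with MYC, all with POL2 in fewer than 6 libraries, those called in the re-ranking and the 5 best-ranked; others named were chosen after their values were seen. Shared replicate numbers did not pair the libraries. Alternatives covered windows, transcript starts, score minimum, list length, gene copies, left-out replicates and a replicate block. Python 3.11.15, pandas 2.3.3, scipy 1.17.1 and pysam 0.24.0 were used.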

Additional observations from a re-analysis of the deposited data

How the results depend on the processing

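Of 111 alternative values for 9 results, 92 stayed within the limits set for a change and 19 moved, with 0 reversed. The MYC share difference (21.6 points) was 14.7 points with a score of at least 5, 0.980 with lists of equal length and 19.8 without TIMM23 and TIMM23B, and 21.1 to 22.5 with a replicate left out. The POL2 share difference (20.6 points) was 1.96 points with lists of equal length, counted as within the limits because the WT libraries spread by 23.8 points (SD), and 7.84 to 31.4 points with a replicate left out. The count of genes with MYC in 3 SLK-KO and 0 WT libraries (3) was 1 with a score of at least 5, 0 with lists of equal length and 3 to 6 with a replicate left out, and the reverse count was 0 throughout. The count with POL2 in 3 SLK-KO and 0 WT libraries (0) was 2 with lists of equal length and 0 to 5 with a replicate left out, and the reverse count was 1 with lists of equal length and 0 with any replicate left out. For these MYC and POL2 presence counts the shares of all coding genes under each alternative are not given here. Counts of better POL2 ranks were 0 to 3 (SLK-KO) and 1 to 3 (WT) with a replicate left out, and the WT count was 0 with a score of at least 5. The E-box difference (39.1 points) was 20 to 60 with an SLK-KO replicate left out, and had no value at equal length or without WT replicate 1, which held the only WT summit. Same-numbered libraries did not deviate together over all coding genes (correlations of 0.0210, 0.0127 and -0.0162 for MYC and 0.107, 0.0558 and -0.0153 for POL2). With the replicate block, the mean of the differences between same-numbered libraries, the share differences were 21.6 and 20.6 points, as without it. With every library paired these values are equal by arithmetic, so this alternative, counted among the 92, is no check. Starts of protein-coding transcripts, an alternative chosen after seeing the data, changed 0 of the calls. Unknown depth and lists of unequal length limit every comparison of presence.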
